A study of Mus musculus with 16 samples.

Results

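Windows named for 4 genes that drive the cell cycle, Mycn, Ccnd1, Ccnd2 and Cdk6, were followed through Gli2 binding, H3K27ac and H3K36me3 in mouse medulloblastoma. Each was a fixed window of build mm9, set by position, and the choice was made with earlier results of these data known. The Mycn window was chromosome 12 at 12850001–13050000, the Ccnd1 window chromosome 7 at 152000001–152200000, the Ccnd2 window chromosome 6 at 127000001–127200000 and the Cdk6 window chromosome 5 at 3290001–3590000. These windows held 205 of the 209254 called regions of the 6 peak lists, with 22 at Mycn, 14 at Ccnd1, 36 at Ccnd2 and 133 at Cdk6. No gene annotation of build mm9 was used, so a region is placed in a gene's window and not in its promoter, exons or introns. Whether each window holds the gene it is named for was therefore not checked.

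The Hedgehog pathway drives the proliferation of granule neuron progenitors in the developing cerebellum, and medulloblastoma of the Hedgehog type arises from these cells. Signalling through Smoothened releases Gli2, a zinc finger transcription factor, from inhibition by Sufu, and Gli proteins then activate target genes. Mycn encodes a transcription factor of the Myc family, which pairs with Max and binds E-boxes, and it is a known Hedgehog-responsive gene in granule neuron progenitors. Ccnd1 and Ccnd2 encode the D-type cyclins D1 and D2, and Cdk6 encodes a kinase that these cyclins activate. Cyclin D kinases phosphorylate the retinoblastoma protein, which frees E2F factors to switch on genes for DNA replication. H3K27ac is found at active promoters and enhancers, and H3K36me3 lies along the bodies of transcribed genes.

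Tumours were taken at postnatal day 13 from mice of 2 genotypes. The first carried SmoM2 overexpression, that is, a constitutively active Smoothened, and the second was a Sufu;Spop double knockout (DKO), lacking Sufu and also Spop, the ubiquitin ligase adaptor that recognises Gli proteins. The labels describe all 16 libraries as medulloblastoma and name neither the promoter or Cre line behind each genotype nor the age of tumour onset. Each antibody had 2 libraries per genotype, and 4 further libraries were input DNA. Each pair of ChIP libraries shared 1 deposited list, so the values below have no replicate error, no difference between genotypes could be tested, and each difference is one between 2 lists. No read totals are given in the lists, and the depth behind them is unknown. Cell type markers were not checked, since the lists name no genes.

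Promoter sequences were available for Mycn and Cdk6, and are shown because factors of the Gli, Myc and E2F families are known regulators of cell cycle genes. The RefSeq promoter table of build GRCm38.p6 was matched by symbol for 2 of the 4 genes, and Ccnd1 and Ccnd2 had no entry. Shown are the 250 bases before the start, 5′ to 3′ on the gene's strand, for Mycn at chr12:12941837-12942086 (minus strand) and Cdk6 at chr5:3343643-3343892 (plus strand). These positions are of GRCm38.p6 and cannot be set against the mm9 positions of the peaks. Capitals mark E2F motifs (TTTGGCGC) in Mycn and the E-box (CACGTG) in Cdk6, searched on both strands and chosen after the sequences were read.
Mycn: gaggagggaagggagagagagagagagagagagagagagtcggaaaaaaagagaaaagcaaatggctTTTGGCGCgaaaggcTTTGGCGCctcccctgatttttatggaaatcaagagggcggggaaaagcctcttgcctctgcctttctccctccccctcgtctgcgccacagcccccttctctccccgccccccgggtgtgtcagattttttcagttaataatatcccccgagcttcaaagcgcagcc
Cdk6: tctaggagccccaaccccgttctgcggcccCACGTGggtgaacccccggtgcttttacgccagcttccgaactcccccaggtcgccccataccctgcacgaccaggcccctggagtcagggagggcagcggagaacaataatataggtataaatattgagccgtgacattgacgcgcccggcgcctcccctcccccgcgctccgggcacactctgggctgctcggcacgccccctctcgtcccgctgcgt
The Mycn promoter held 2 copies of the E2F motif, and this motif was in the promoters of 131 of 27025 genes (0.485%). The Cdk6 promoter held 1 E-box, as did those of 6.86% of genes at 1 copy or more. The GLI motif GACCACCCA was found in neither promoter, on either strand, also with 1 mismatch outside its core CCACC. With that mismatch the motif was in 3.68% of genes, and among 18 of 23 G1 cell cycle genes with an entry it was in 1, Rbl1, which encodes a relative of the retinoblastoma protein. Of 8 Hedgehog targets 4 had an entry and none held it. These are matches of letters in a short window and say nothing of whether a factor binds elsewhere at the locus.

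Gli2 was called in the windows of all 4 genes in DKO tumours and only at Mycn in SmoM2 tumours. The DKO list had 2 peaks at Mycn, 1 at Ccnd1, 2 at Ccnd2 and 2 at Cdk6. The SmoM2 list had 1 peak at Mycn and 0 in the other 3 windows. Across the genome the DKO list held 1426 peaks and the SmoM2 list 148, a ratio of 9.64, so 7 peaks against 1 is close to the ratio of the whole lists. When the DKO list was shortened to its 148 peaks of highest −log10 q, the strong Mycn peak alone was left, with 0 at Ccnd1, Ccnd2 and Cdk6. As background, the genome was laid out in tiles as long as the windows, and tiles with H3K27ac in both genotypes were counted. Of 200-kb tiles, 15% held a DKO peak and 1.77% a SmoM2 peak, and of 300-kb tiles, the length of the Cdk6 window, 18.6% and 2.34%. At least 2 DKO peaks, as at Mycn and Ccnd2, were present in 3.59% of 200-kb tiles, and as at Cdk6 in 5.22% of 300-kb tiles. Of the 6093 tiles of 200 kb counted here, 1127 averaged at least 5 kb of H3K27ac, as all 4 windows did. The shares among tiles as acetylated as the windows were not counted and may differ. A window without a peak shows that none was called there, not that Gli2 was absent.

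**Figure D1:**
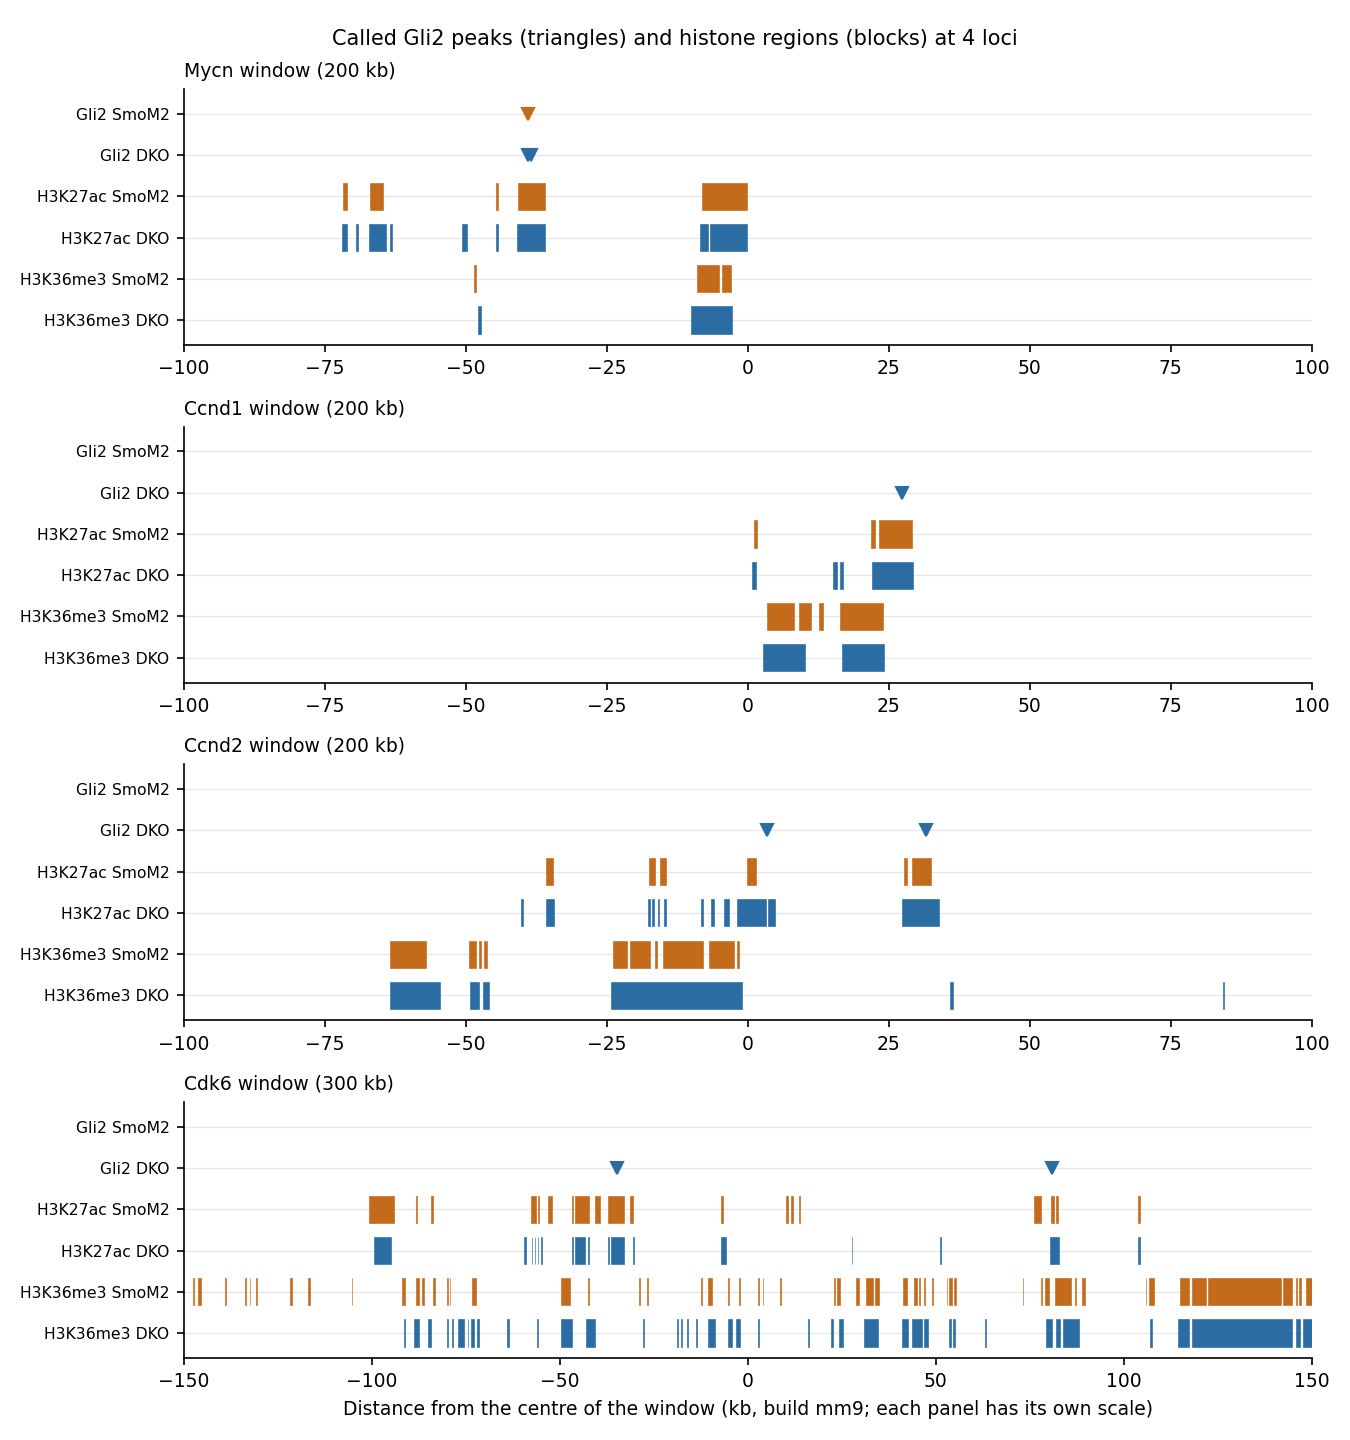
Called regions of the 6 lists in the Mycn, Ccnd1, Ccnd2 and Cdk6 windows, plotted by distance from the window's centre in kb (build mm9). Triangles are Gli2 peaks and blocks are H3K27ac or H3K36me3 regions, in orange for SmoM2 and blue for DKO tumours. The 7 DKO Gli2 peaks are spread over all 4 windows and the 1 SmoM2 peak lies at Mycn, where the 2 DKO peaks are too close to be drawn apart.

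The Gli2 site at Mycn was called in both genotypes at nearly the same base. The SmoM2 peak was at chromosome 12, 12910951–12911076, with its summit at 12911019, and the DKO peak at 12910934–12911122, with its summit at 12911017. The authors' fold enrichment was 10.4 in the SmoM2 list, where the peak ranked 28 of 148 by −log10 q (the caller's significance after correction, 15.9). In the DKO list the fold enrichment was 26.5 and −log10 q 79.7, rank 41 of 1426. Each fold and −log10 q is the authors' value for that peak and places it only within its own list. The fragment number recovered from the authors' fold and −log10 p was 24 (exact Poisson 95% interval 15.4–35.7) over a background of 1.40 in the SmoM2 list and 69 (53.7–87.3) over 1.64 in the DKO list. The intervals cover counting error only, and the lists' sequencing depths are not known. Of all DKO peaks 5.96% overlapped a SmoM2 peak, and of the 7 DKO peaks in the windows this was the 1 that did. The other DKO peak at Mycn lay beside it, at 12911356–12911658, with a summit 422 bases away, a fold enrichment of 7.79 and rank 888. It was not in the SmoM2 list. Pairs this close were uncommon, since 96 of 1426 DKO summits (6.73%) had another summit within 1 kb.

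In the Ccnd1 (cyclin D1) window the only Gli2 peak was a DKO peak at chromosome 7, 152127129–152127470. Its fold enrichment was 14.8 and its rank 297 of 1426, with 33 fragments (22.7–46.3). In the Ccnd2 (cyclin D2) window the stronger of the 2 DKO peaks lay at chromosome 6, 127131394–127131840. It was the widest of the 7, at 447 bases, with a fold enrichment of 18.3, rank 160 and 41 fragments (29.4–55.6). The other, at 127103327–127103441, was 28.3 kb away and the weakest of the 7, with a fold enrichment of 7.39, rank 1051 and 16 fragments (9.15–26.0). In the Cdk6 window the 2 DKO peaks were 116 kb apart. The first, at chromosome 5, 3405137–3405297, had a fold enrichment of 14.4, rank 329 and 32 fragments (21.9–45.2). The second, at 3520839–3521014, had a fold enrichment of 16.5, rank 220 and 37 fragments (26.1–51.0).

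Of the 7 DKO peaks, 5 ranked above the middle of their list by −log10 q, and the strong Mycn peak stood in the top 2.88%. Their median fold enrichment was 14.8, beside 9.57 for all DKO peaks, and their median width 189 bases, beside 165. In 5 of the 7, at Ccnd1, Ccnd2 and Cdk6, the recovered background was the most common value of the list, 1.30 fragments, shared by 768 DKO peaks.

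**Figure D2:**
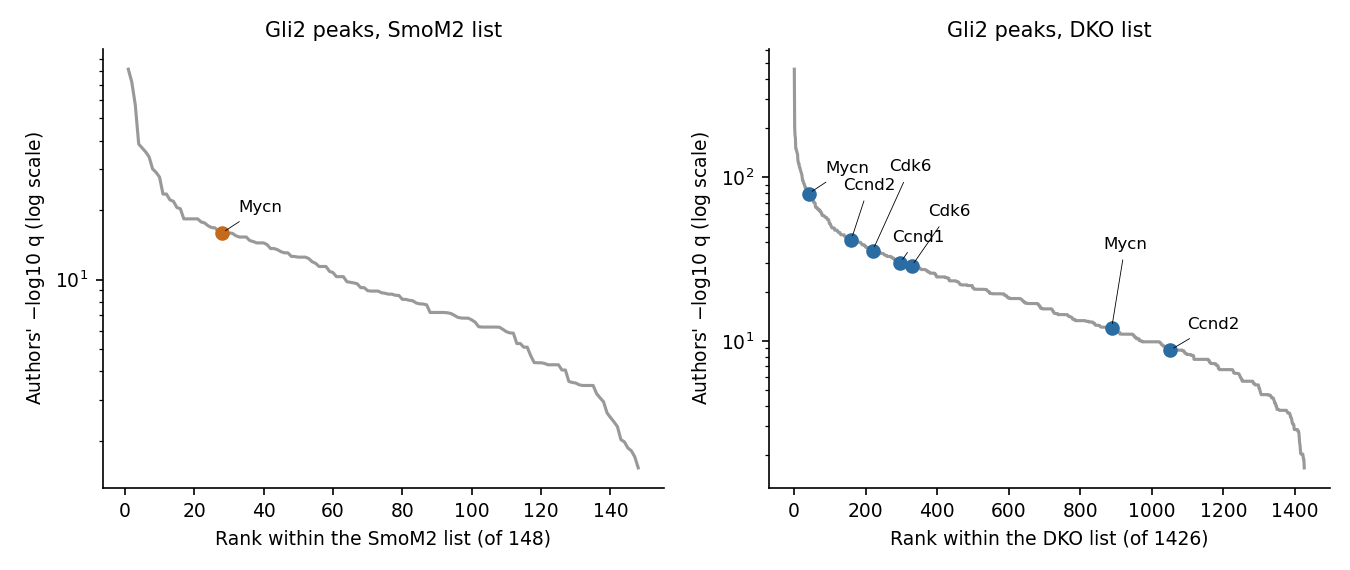
The authors' −log10 q (log axis) of every Gli2 peak against its rank within its list, with SmoM2 on the left and DKO on the right. Points mark the peaks in the Mycn, Ccnd1, Ccnd2 and Cdk6 windows. In the DKO list 5 of the 7 points lie between ranks 41 and 329 and the other two, at Mycn and Ccnd2, at 888 and 1051.

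Most of these Gli2 peaks lay in chromatin acetylated in both genotypes. Of the 7 DKO peaks, 6 overlapped H3K27ac regions of both the SmoM2 and the DKO list, compared with 41.3% of all DKO Gli2 peaks. The exception was the weak peak at Ccnd2, which fell in a gap between 2 acetylated regions of the DKO list, 150 bases from the nearer, and 1935 bases from the nearest region of the SmoM2 list. The single Ccnd1 peak lay inside a region of 7.38 kb in the DKO list and 5.71 kb in the SmoM2 list. None of the 7 overlapped an H3K36me3 region of either list, and 2.31% of all DKO peaks overlapped one of the DKO list. The nearest case was the second Cdk6 peak, 62 bases from an H3K36me3 region of DKO tumours.

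H3K27ac differed between the 4 loci in both size and direction. At Mycn, called regions covered 16.3 kb in the SmoM2 list and 18.9 kb in the DKO list, a ratio of DKO to SmoM2 of 1.15. At Ccnd1 they covered 6.92 and 9.44 kb (ratio 1.36), close to the ratio of 1.33 for the whole lists. At Ccnd2 the DKO list covered 17.5 kb and the SmoM2 list 8.81 kb, a ratio of 1.98. At Cdk6 the direction was opposite, with 26.0 kb in the SmoM2 list and 17.4 kb in the DKO list, a ratio of 0.669. Over the 4 windows together the lengths were 63.2 and 58.1 kb, a ratio of 1.09. By share of the window, the order in SmoM2 tumours was Cdk6 (8.66%), Mycn (8.17%), Ccnd2 (4.41%) and Ccnd1 (3.46%). In DKO tumours it was Mycn (9.43%), Ccnd2 (8.75%), Cdk6 (5.79%) and Ccnd1 (4.72%). Without replicates, it is not known which neighbours in these orders differ. Both orders changed with −log10 q of at least 5, where Mycn passed Cdk6 and Ccnd1 passed Ccnd2 in the SmoM2 list, and Ccnd1 passed Cdk6 in the DKO list. At that threshold the Mycn ratio turned to 0.957 and the Ccnd2 ratio rose to 3.47, beside 1.70 for the whole lists.

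**Figure D3:**
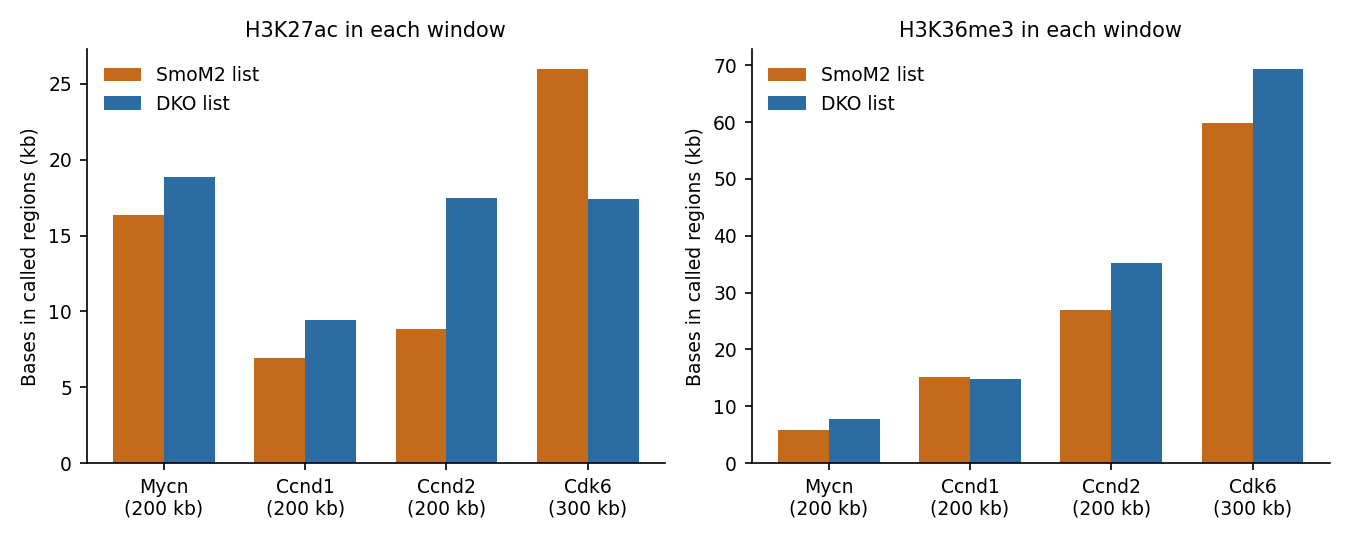
Bases in called H3K27ac (left) and H3K36me3 (right) regions, in kb, in the windows of Mycn, Ccnd1, Ccnd2 and Cdk6, for the SmoM2 list (orange) and the DKO list (blue). Each bar is 1 list with no replicate error. For H3K27ac the blue bar is higher at Mycn, Ccnd1 and Ccnd2 and lower at Cdk6.

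Set against tiles of equal length, Ccnd2 and Cdk6 lay towards opposite ends. Of 7871 tiles of 200 kb with H3K27ac in either list, 72.4% had more acetylated bases in DKO tumours, as did all 3 windows of that length. Of 300-kb tiles 74.1% did, and the Cdk6 window was among the others. Ratios were taken over tiles that averaged at least 5 kb of H3K27ac and carried it in both lists, which leaves out tiles marked in a single list. Among 1127 such tiles of 200 kb the median ratio was 1.29, and the range from the 5th to the 95th percentile was 0.722 to 2.42. The ratios of Mycn, Ccnd1 and Ccnd2 all lay within it, and 11.7% of tiles had a ratio at least as high as that of Ccnd2. Among 1226 such tiles of 300 kb the range was 0.750 to 2.42. The Cdk6 ratio of 0.669 lay below it, and 3.34% of tiles had a ratio as low. These shares place the windows among tiles of the same 2 lists and are not a test between genotypes.

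**Figure D4:**
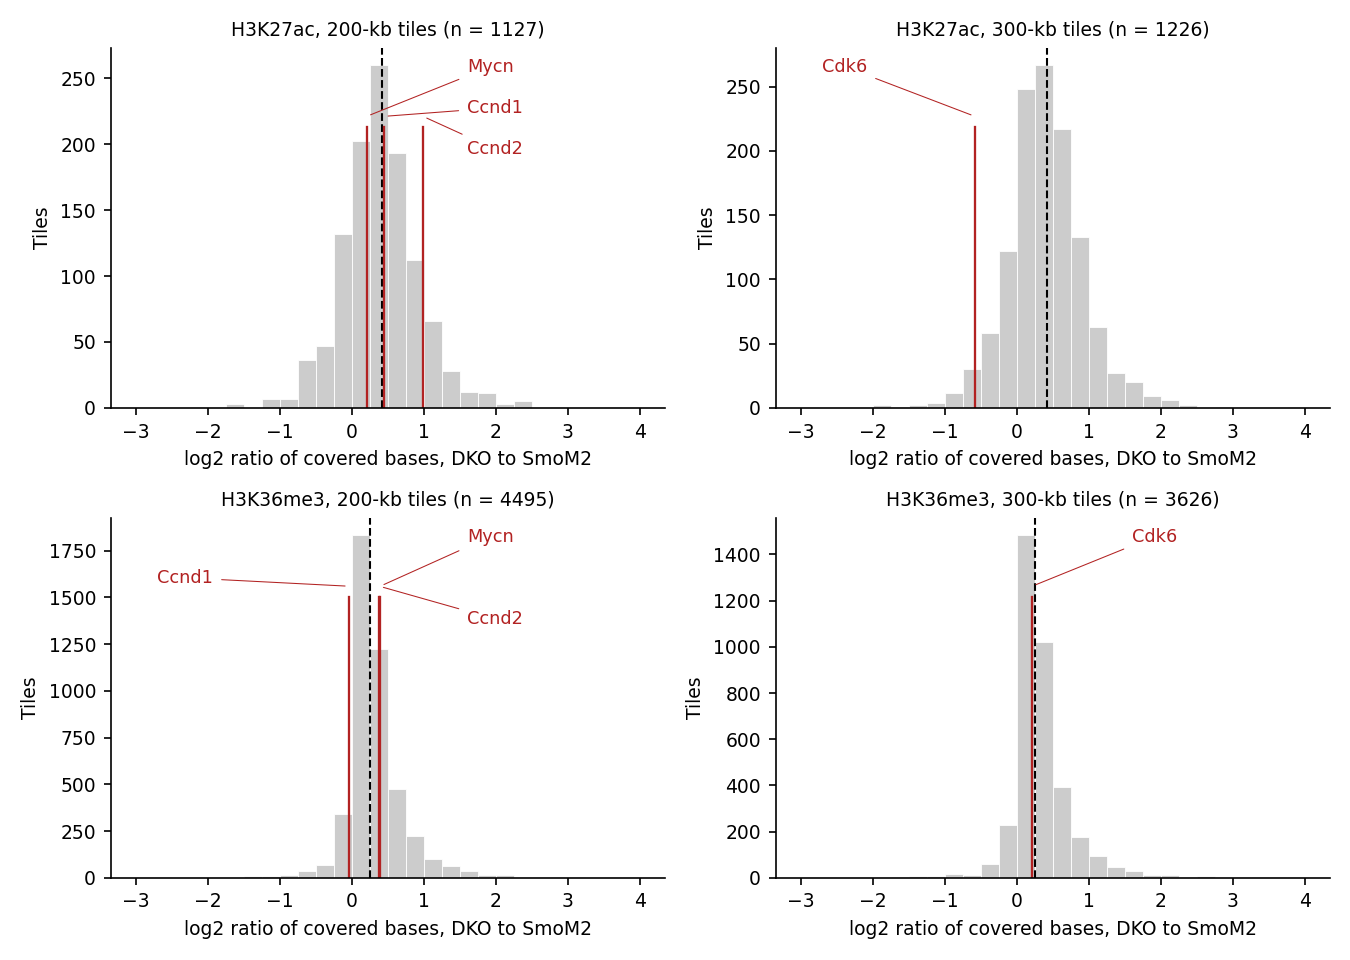
Number of tiles by log2 ratio of covered bases, DKO to SmoM2, for H3K27ac (top) and H3K36me3 (bottom), with tiles of 200 kb (left) and 300 kb (right) that averaged at least 5 kb of the mark. The tiles counted carried the mark in both lists. Red lines mark the gene windows of that length and the dashed line the ratio of the whole lists. For H3K27ac, Ccnd2 lies to the right of the dashed line and Cdk6 far to its left.

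At Mycn most acetylated bases were common to both genotypes. Of the bases acetylated in SmoM2 tumours 96.6% were also acetylated in DKO tumours, and of the DKO bases 83.7% in SmoM2 tumours. All 5 SmoM2 regions overlapped a DKO region. The widest, at chromosome 12, 12941806–12949920, spanned 8.12 kb in SmoM2 tumours and ranked 86 of 21630 regions by width. The DKO list split it into regions of 1.41 kb and 6.57 kb at 12943287–12949853. That second region had a fold enrichment of 13.8 and ranked 36 of 29504 by −log10 q, the highest rank among the 9 acetylated DKO regions at Mycn. The Gli2 site lay in another region, 32.3 kb away from its summit, that spanned 4.72 kb in the SmoM2 list and 4.93 kb in the DKO list (12909123–12914056). Another region of both lists, at 12882808–12885830 in DKO tumours, measured 3.02 kb there and 2.34 kb in SmoM2 tumours. The 3 DKO regions with no counterpart were 311 to 881 bases wide and had fold enrichments of at most 3.57.

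At Ccnd1 most acetylation sat in 1 block that also held the Gli2 peak. This block, at chromosome 7, 152121926–152129303 in DKO tumours, had 78.2% of the window's acetylated bases in that list and ranked 148 of 29504 by width. In SmoM2 tumours a region of 5.71 kb at 152123312–152129026 and one of 0.732 kb covered 6.36 kb of the same span. Of the SmoM2 bases 97.4% were acetylated in DKO tumours. The DKO list added 2 regions of 0.779 and 0.492 kb at 152115030–152116872.

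At Ccnd2 10.0 kb was acetylated in the DKO list only. These bases came from regions that reached beyond those of SmoM2 tumours and from regions that the SmoM2 list lacks. Of the DKO bases 42.6% were acetylated in SmoM2 tumours, the lowest such share of the 4 windows, while 84.5% of SmoM2 bases were in the DKO list. The region at chromosome 6, 127098037–127103158 spanned 5.12 kb in DKO tumours with a fold enrichment of 9.14, and 1.56 kb of it was acetylated in SmoM2 tumours with a fold enrichment of 4.72. The weaker Gli2 peak lay just beyond its end. The region with the stronger Gli2 peak, at 127127246–127133834, spanned 6.59 kb in DKO tumours, with 3.85 kb of it acetylated in SmoM2 tumours in 2 regions. Of the 12 DKO regions at Ccnd2, 6 had no counterpart, and these were 222 to 1130 bases wide and covered 3.47 kb together. All 6 SmoM2 regions overlapped a DKO region. The stretch at 127082436–127085501 went the other way, with 2.17 kb acetylated in SmoM2 and 1.05 kb in DKO tumours.

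At Cdk6 the SmoM2 list had more acetylated bases in each of 4 equal stretches of the window. From its start to its end SmoM2 tumours had 7.32, 13.4, 1.35 and 3.88 kb, and DKO tumours 4.45, 9.66, 0.508 and 2.76 kb. The widest SmoM2 region, at chromosome 5, 3339091–3345830, spanned 6.74 kb, and the DKO region inside it 4.45 kb. Both stood high in their own list by −log10 q, the SmoM2 region at rank 509 of 21630 (top 2.35%) and the DKO region at rank 859 of 29504 (top 2.91%). The narrower DKO region had the higher fold enrichment, 7.95 beside 6.56. The next widest SmoM2 regions went the other way. At 3402896–3407162 fold enrichment was 7.24 in SmoM2 and 6.63 in the widest DKO region there, and at 3393979–3397597 it was 6.59 and 6.11. Of the 19 SmoM2 regions 8 had no counterpart, among them one of 2.04 kb at 3516000–3518042 and one of 1.51 kb at 3399226–3400738. Their fold enrichments were at most 3.87, beside a median of 3.75 for the whole SmoM2 list. The 4 DKO regions without a counterpart were 160 to 435 bases wide. A short region at 3543849–3544223 was nearly the same in both lists, at 375 and 360 bases, with a fold enrichment of 8.44 in DKO and 4.91 in SmoM2 tumours. In the genome as a whole 26.6% of SmoM2 and 47.3% of DKO H3K27ac regions had no counterpart. In the 4 windows 8 of 33 SmoM2 regions, all at Cdk6, and 15 of 42 DKO regions had none.

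Acetylation directly around the Gli2 summits differed between the lists in the same direction as in each window, of which these stretches are a part. Within 5 kb on each side, 4.72 kb was acetylated in SmoM2 and 4.93 kb in DKO tumours at both Mycn summits, which share 1 region and so count as 1 site. At Ccnd1 it was 6.06 and 7.08 kb. At the Ccnd2 summits it was 1.56 and 5.92 kb for the weaker peak and 3.85 and 6.59 kb for the stronger. At the Cdk6 summits the SmoM2 list had more, with 5.51 and 4.01 kb at the first and 3.52 and 2.39 kb at the second. All of these exceeded the medians over all 1426 DKO summits, 1.08 kb for the SmoM2 and 1.45 kb for the DKO list. Thus at Gli2 peaks called only in DKO tumours, the DKO list had more acetylated bases at Ccnd1 and Ccnd2 and fewer at Cdk6. At the second Mycn peak, also called only in DKO tumours, it had slightly more. The whole DKO list covered 1.33 times the acetylated bases of the SmoM2 list, and the increases at Mycn and Ccnd1 were smaller than that.

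**Figure D5:**
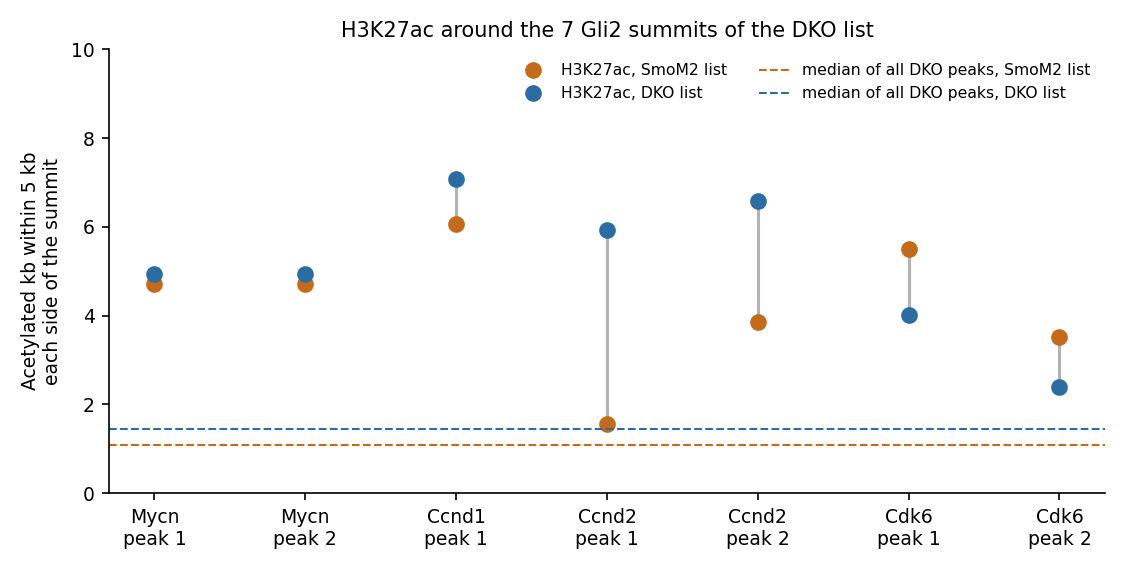
Acetylated kb within 5 kb on each side of the 7 DKO Gli2 summits, for the SmoM2 (orange) and DKO (blue) H3K27ac lists, with dashed lines at the medians over all DKO Gli2 summits. Blue lies above orange at Mycn, Ccnd1 and Ccnd2 and below it at Cdk6, and the widest gap is at the first Ccnd2 peak.

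The H3K36me3 ratios lay nearer to 1 than those of H3K27ac at Ccnd2 and Cdk6. In the SmoM2 and DKO lists it covered 5.85 and 7.69 kb at Mycn (ratio 1.31), 15.2 and 14.8 kb at Ccnd1 (0.976), 26.98 and 35.2 kb at Ccnd2 (1.30), and 59.8 and 69.4 kb at Cdk6 (1.16). The ratio of the whole lists was 1.19. Of 200-kb tiles with the mark 79.6% had more marked bases in DKO tumours, and of 300-kb tiles 81.2%. Ratios were again taken over tiles with at least 5 kb on average and the mark in both lists. Their range from the 5th to the 95th percentile was 0.909 to 2.12 for 200 kb and 0.910 to 2.11 for 300 kb. All 4 windows lay within it. With −log10 q of at least 5, the Mycn ratio was 4.50, beside 3.98 for the whole lists, and the other 3 windows kept no marked base in 1 of the lists. Among regions of fold enrichment 3 or more, the ratio turned to 1.02 at Ccnd1 and 0.953 at Cdk6, and with the DKO list shortened to the covered length of the SmoM2 list it was 0.699 at Cdk6. In the 4 windows, 27 of 72 SmoM2 regions (37.5%) and 18 of 50 DKO regions (36%) had no counterpart. The shares in the whole lists were 25.2% and 31.1%. Most of those in the windows lay at Cdk6, with 25 of its 55 SmoM2 and 15 of its 40 DKO regions. The SmoM2 and DKO numbers were 1 and 1 at Mycn, 1 and 0 at Ccnd1, and 0 and 2 at Ccnd2.

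At Mycn, H3K36me3 formed 1 wide block that ran into the widest acetylated region, and each list held 1 short region elsewhere, of 286 bases in SmoM2 and 435 bases in DKO tumours, that did not overlap the other. It spanned 12939988–12947242 in DKO tumours, and in SmoM2 tumours 2 regions covered 5.57 kb of it. At Ccnd1 there were 2 wide blocks in both genotypes, at 152102757–152110188 and 152116691–152124055 in DKO tumours. The SmoM2 list had a further region of 0.655 kb between them, at 152112651–152113305, without a DKO counterpart. At Ccnd2 the DKO list had 1 region of 23.2 kb at 127075679–127098863, where the SmoM2 list had 6 regions covering 18.2 kb. It ended 0.827 kb inside the acetylated region at 127098037–127103158. At Cdk6 the mark was thin along most of the window, with 42 of 55 SmoM2 and 22 of 40 DKO regions under 1 kb wide, and 38.4 of 59.8 kb in SmoM2 and 40.4 of 69.4 kb in DKO tumours lay in the last of the 4 stretches. The main block there spanned 3554873–3584809 in SmoM2 and 3554462–3584717 in DKO tumours, once gaps of up to 1 kb were bridged. In the RefSeq table of GRCm38.p6 the protein-coding genes next to each member were Cyria and Ddx1 for Mycn, LTO1 and Tpcn2 for Ccnd1, and Tigar and Parp11 for Ccnd2, while Fam133b followed Cdk6. Which gene each block belongs to was not analysed here.

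The 2 histone marks shared a larger portion of the acetylated bases at Mycn than over the genome. At Mycn 28.7% of acetylated bases in SmoM2 and 28.5% in DKO tumours also lay in H3K36me3 regions of the same genotype, compared with 5.14% and 8.20% over all chromosomes. At Ccnd1 the shares were 20.7% and 24.5%. At Ccnd2 they were 8.00% in SmoM2 and 21.9% in DKO tumours, or 0.705 and 3.84 kb. At Cdk6 they were 4.06% and 9.56%, close to the values over all chromosomes.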

How the data were processed

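Gli2, H3K27ac and H3K36me3 were profiled by ChIP-seq in medulloblastomas of 2 genotypes, and the titles of the 16 libraries gave their genotype and antibody. The submitters' processing notes name build mm9, BWA, Trimmomatic 0.36, MACS2 and bedtools. What each tool did, with which settings and whether input was subtracted, are points not given in the sources used here. A protocol in the labels also names an Olig2 antibody on the beads, which no sample lists. Per the labels, both libraries of a group share 1 deposited list, so the lists are merged, and whether the libraries came from separate animals is not stated.

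The authors deposited, for each region, start, end, fold enrichment (a ratio over background), p and q as −log10, and a score of 10 times −log10 q. The other deposited columns are positions, per the file format. No reads are stated, so depth is unknown.

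Only chromosomes 1 to 19, X and Y entered. Bases were clipped at the window's edge. Overlap meant at least 1 shared base. Tiles started at the first base of each chromosome. Fragment numbers at Gli2 summits were recovered from a model in which fold is the ratio of fragments plus 1 to background plus 1 and p is a Poisson upper tail, which gave whole numbers within 0.01 of −log10 p for 148 of 148 SmoM2 and 1425 of 1426 DKO peaks, and the intervals are exact Poisson 95% intervals. Scripts were tested on simulated data. Software was matplotlib 3.10.9, scipy 1.17.1, pandas 2.3.3 and numpy 2.4.6 under Python 3.11.15. No test between genotypes was made. All Gli2 peaks of the windows are named, and histone regions were drawn from the 3 widest of each window, mark and list after joining those at most 1 kb apart, printed mostly as the single deposited regions. Other regions named, and the E2F and E-box motifs, were chosen after their values or sequences were seen. The members, windows and lists were chosen with earlier results of these data known. Alternatives covered thresholds, list length, joining and window width.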

Additional observations from a re-analysis of the deposited data

How the results depend on the processing

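Of 109 values under the planned settings, 97 stayed within 1.5 times the reported value and on the same side of a ratio of 1. Some of these could not have changed. Shortening the DKO list leaves the SmoM2 Gli2 counts as they are, and a stricter threshold keeps a count of 0. At a fold enrichment of at least 3 no H3K27ac region of the windows was dropped. Ratios lost for want of marked bases are not among the 109. With −log10 q of at least 10, Ccnd2 kept 1 DKO Gli2 peak. With the DKO Gli2 list shortened to the length of the SmoM2 list, 1 DKO peak was left at Mycn and 0 at Ccnd1, Ccnd2 and Cdk6. With summits within 500 bases counted as shared, 2 DKO peaks at Mycn were shared, both with the 1 SmoM2 peak. For H3K27ac regions of −log10 q 5 or more, DKO to SmoM2 covered length turned to 0.957 at Mycn and reached 3.47 at Ccnd2, beside 1.70 for the whole lists. The Cdk6 ratio stayed below 1 under all 6 settings (0.453 to 0.753) and the Ccnd2 ratio above 1 (1.71 to 3.47). For H3K36me3, the ratio at Mycn was 4.50 for regions of −log10 q 5 or more, beside 3.98 for the whole lists. With a fold enrichment of at least 3 it turned to 1.02 at Ccnd1 and 0.953 at Cdk6, and with the DKO list cut to the covered length of the SmoM2 list to 0.699 at Cdk6. The cause was not tested. At that q threshold Ccnd1, Ccnd2 and Cdk6 had no H3K36me3 base left in 1 of the lists and so no ratio. Gli2 peak counts were unchanged in windows widened by 50 kb or narrowed by 25 kb on each side. No paired analysis was possible because both replicates of a group share 1 list. Leaving out a replicate was not possible for the same reason.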

Other observations

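With the Cdk6 window divided into 4 equal stretches, the second of them holds the first Gli2 peak. There H3K36me3 covered 5.80 kb in the SmoM2 list and 13.02 kb in the DKO list, while H3K27ac covered 13.4 and 9.66 kb. In the first stretch both marks covered less in the DKO list, with 6.26 and 4.05 kb of H3K36me3 and 7.32 and 4.45 kb of H3K27ac. The H3K36me3 regions of this window without a counterpart had −log10 q of at most 2.66 (SmoM2) and 2.90 (DKO), beside medians of 2.23 and 2.11 for the whole lists.

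Beyond the Mycn window, a further 50 kb on each side raised the acetylated length to 24.2 kb for the SmoM2 list and 26.8 kb for the DKO list. The same step added nothing at Ccnd1 or Ccnd2 in either list. Among the G1 cell cycle genes with a RefSeq promoter entry, the E-box was also present at Cdk4 and at E2f3. The exact sequence TTTGGCGC was present at Mycn alone of the 18. That sequence was chosen after the Mycn promoter was read, so its match there was known beforehand. Other forms of the E2F motif were not searched, so the remaining promoters are not shown to lack one.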
